A study of Mus musculus with 14 samples.

Results

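MERVL and MT2 elements are the internal parts and the long terminal repeats (LTRs) of one lineage of mouse endogenous retroviruses, and their RNA was followed through male germ cells with and without the DNA methyltransferase DNMT3C. The members were all transposable element (TE) entries of the ERVL family whose subfamily name starts with MERVL or MT2. They comprised 8 of the 1095 TE subfamilies counted in spermatogonia (Spg) and of the 1098 counted in spermatocytes (Spc), and 46168 of 3725827 single copies, within 118581 copies of the ERVL family. MT2B had 13977 copies, MT2A 10140, MT2B1 7248, MERVL_2A-int 3899, MT2B2 3655, MT2_Mm 2667, MERVL-int 2600 and MT2C_Mm 1982. A read was assigned in at least 1 library to 44.7% of MERVL-int and 37.4% of MT2_Mm copies, against 16.3% to 23.9% of the copies in each other subfamily.

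MERVL-int is the internal, protein-coding part of MERVL and MT2_Mm is its LTR, which holds the promoter. Both are known for a burst of transcription in the mouse embryo at the 2-cell stage, where the transcription factor DUX binds MT2_Mm and MERVL LTRs serve as promoters of host genes. MT2C_Mm, MT2B, MT2B1, MT2B2 and MT2A are LTRs of older relatives, most of them left as solo LTRs, and MERVL_2A-int is an older internal part. DNMT3C is a rodent enzyme that methylates promoters of young retrotransposons in fetal male germ cells, and males without it are sterile.

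The study sequenced poly(A) RNA of sorted germ cells from Dnmt3C KO/KO males (KO) and wild-type littermates (WT) on a C57Bl6/J background. Spg were sorted at postnatal day 14 as viable, EpCAM-positive and β2-microglobulin-negative cells, in 3 KO and 3 WT libraries. Spc were sorted by DNA content from mice older than 20 days, in 4 KO and 4 WT libraries. The knockout is constitutive, and its germ cells stop in meiosis, so that the KO Spc sort lacks the later stages that the WT sort contains. The labels do not tie libraries to single animals, and p-values measure only the spread between these libraries, which may be technical in part.

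Library depth lay between 40.6 and 53.3 (in units of 1000000 counts), and TEs took 1.77% to 8.67% of them. Dnmt3c itself had 53 to 116 counts in the Spg libraries of both genotypes, 52 to 57 in KO Spc and 11 to 28 in WT Spc, so its gene-level count was not lower in KO. The part of the gene that the allele lacks is not given in the sources used here, and this count therefore checks nothing about the labels. The sorts of both stages differed between genotypes in their germ cell markers. Summed over 8 pachytene genes, KO Spg had 136 to 170 counts per 1000000 (CPM) and WT Spg 534, 1829 and 252, with no overlap. For the same genes KO Spc had 169 to 411 CPM and WT Spc 7345 to 14382. Over 9 spermatogonial genes KO Spc had 413 to 1027 CPM and WT Spc 40.3 to 268, and WT Spc replicate 3 was the lowest WT library for the first list and the highest for the second. Markers of Leydig cells (46.6 to 276 CPM in KO, 12.4 to 24.6 in WT) and macrophages (19.5 to 109 and 2.53 to 5.02) were also higher in KO Spc, as were peritubular markers (14.9 to 146 and 3.18 to 8.60), and Sertoli markers overlapped (241 to 880 and 109 to 401). Early meiotic markers overlapped between the genotypes and the stages (1151 to 2002 CPM in Spg and 1321 to 2403 in Spc), so that the Spg sorts also hold such RNA. Spermatid markers summed to 2.53 to 9.99 CPM in KO Spc and 57.7 to 1277 in WT Spc, with WT replicate 3 the highest. In bulk samples, fewer cells of a type and less RNA per cell cannot be told apart. Spc replicates 1 and 4 of each genotype lay much closer to each other than other replicate pairs did (median chi-square per feature 3.37 in KO and 2.38 in WT, against 27.2 to 115 for the other Spc pairs), yet above sampling noise, and were kept as separate libraries. The labels give them as separate replicates, but they may be repeats of 1 sample, in which case n = 4 overstates the replication and the p-values of Spc comparisons are too small.

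Stretches of 4 LTR copies are given as examples. The reference used here holds no whole genome, so the stretches printed are those that fall in RefSeq promoter windows (GRCm38.p6) or GENCODE M21 exons (GRCm38). They are printed 5′ to 3′ on the strand of the element, with CG dinucleotides, the sites of DNA methylation, in capitals. MT2_Mm_dup200 (chr1:188608480-188608779, minus strand) is shown as an LTR of the young type, MT2_Mm_dup519 (chr3:140760606-140760704, minus strand) because its reads were found in KO libraries only, MT2C_Mm_dup634 (chr5:148971712-148972011, minus strand) as a related LTR, and MT2A_dup2451 (chr4:123858628-123858791, plus strand) because it carried many reads in WT Spc.
MT2_Mm_dup200: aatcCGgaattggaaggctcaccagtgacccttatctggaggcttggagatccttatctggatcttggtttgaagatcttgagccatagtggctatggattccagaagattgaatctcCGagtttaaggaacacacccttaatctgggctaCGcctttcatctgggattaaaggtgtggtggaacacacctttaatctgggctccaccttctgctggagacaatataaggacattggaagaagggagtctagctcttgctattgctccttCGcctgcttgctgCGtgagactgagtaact
MT2_Mm_dup519: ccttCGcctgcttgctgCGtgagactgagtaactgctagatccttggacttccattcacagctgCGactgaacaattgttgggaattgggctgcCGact
MT2C_Mm_dup634: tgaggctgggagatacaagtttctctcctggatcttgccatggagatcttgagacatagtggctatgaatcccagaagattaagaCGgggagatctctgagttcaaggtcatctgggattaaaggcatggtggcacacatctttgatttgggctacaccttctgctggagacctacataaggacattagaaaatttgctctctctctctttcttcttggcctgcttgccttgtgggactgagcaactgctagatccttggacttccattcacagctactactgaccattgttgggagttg
MT2A_dup2451: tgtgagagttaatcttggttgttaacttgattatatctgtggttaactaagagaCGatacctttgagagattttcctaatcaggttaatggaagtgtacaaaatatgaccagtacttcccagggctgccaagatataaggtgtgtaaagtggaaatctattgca

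MT2_Mm_dup200 holds 5 CG dinucleotides in 300 bases, MT2_Mm_dup519 4 in 99 bases, MT2C_Mm_dup634 1 in 300 bases and MT2A_dup2451 1 in 164 bases. These are values of single copies and do not separate the subfamilies. Promoter windows were searched on both strands for GATTNAATC, a core of sequences bound by DUX, for the same letters with a T before and an A after them, and for TATAAGGA, a TATA-like string of MT2_Mm. The longer form was in 0 of 58 windows with at least 200 bases of a member copy, against 11 of all 32544 windows (0.0338%). GATTNAATC was in 15 of 16 MT2_Mm windows, 3 of 13 MT2C_Mm windows, and 0 of 11 MT2B1 and 0 of 10 MT2B2 windows, against 0.252% of all windows. In MT2_Mm_dup200 it starts at base 108. TATAAGGA was in 16 of 16 MT2_Mm, 6 of 13 MT2C_Mm, 2 of 11 MT2B1, 2 of 10 MT2B2 and 1 of 4 MT2B windows, against 0.906% of all windows, and starts at base 224 of MT2_Mm_dup200. The median was 3 CG dinucleotides per 300 bases in the 16 MT2_Mm windows, 4 in the 3 MT2A windows, 2 in MT2C_Mm and MT2B windows, 1 in MT2B1 and MT2B2 windows and 7 in all windows. These matches describe letters in the windows and not bound sites.

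KO and WT Spg were compared first, at the earlier stage. None of the 8 subfamilies passed the test there, while 4 single copies did by edgeR on their reads (MT2B2_dup1919, MT2B2_dup1918, MT2B_dup2381 and MT2_Mm_dup520, given further on). MERVL-int, the retroviral body, had 44.9, 85.0 and 42.4 CPM in KO and 36.5, 72.4 and 63.9 CPM in WT (57.5 ± 23.9 and 57.6 ± 18.7, mean ± SD, n = 3 each), scaled with the trimmed mean of M-values (TMM) within the stage. Its LTR MT2_Mm had 17.7, 32.7 and 20.9 CPM in KO and 16.2, 26.9 and 23.6 CPM in WT. For both subfamilies, replicate 2 was the highest library of its genotype and the genotypes overlapped.

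Of the 8 subfamilies, 0 were called in Spg by edgeR's quasi-likelihood test at an adjusted p under 0.01, 0 had an unadjusted p under 0.05, and DESeq2 also called 0, while 0.76% of all 921 TE subfamilies tested were called. The log2 fold changes of KO over WT lay between -0.06 for MT2C_Mm and 0.10 for MT2_Mm (edgeR adjusted p = 0.9996 for each of the 8). Their standard errors were 0.27 to 0.34, so changes of that size were not detectable with 3 libraries a group. Members made up 0.0223%, 0.0411% and 0.0246% of all counts in KO Spg and 0.0196%, 0.0349% and 0.0329% in WT Spg, a ratio of 1.01 of the means (two-sided exact permutation p = 1, where 3 against 3 libraries cannot go below 0.1).

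In Spc, MERVL-int was 2.60-fold higher without DNMT3C. MERVL-int had 69.0, 48.3, 72.7 and 69.5 CPM in KO Spc and 20.7, 18.1, 40.7 and 20.5 CPM in WT Spc (64.9 ± 11.2 and 24.98 ± 10.5, mean ± SD, n = 4 each). Every KO library was above every WT library, with WT replicate 3 nearest to the KO values. The log2 fold change was 1.38 ± 0.30 (SE, adjusted p in edgeR = 0.00219). This was the 1 call among the 8 members, and 25.7% of all 929 TE subfamilies tested in Spc were called, 11.7% higher and 14% lower, so a call was common in this contrast. All members together made up 0.0372% ± 0.00501 of counts in KO Spc and 0.0191% ± 0.00595 in WT Spc, a ratio of 1.95 with no overlap (two-sided exact permutation p = 0.0286, the smallest possible; 0.0571 adjusted over both stages). This value depended on the scaling: the log2 ratio of 0.96 became 0.29 for TMM-scaled counts (exact permutation p = 0.0857) and -0.83 for the share of TE counts alone. With replicates 1 and 4 of each genotype summed to 1 library, the call of MERVL-int was lost (1.26, edgeR adjusted p = 0.0202).

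MT2_Mm, the LTR of MERVL, and the older LTRs MT2C_Mm and MT2B2 lay in the same direction without passing the threshold. MT2_Mm had 28.2, 18.7, 27.1 and 27.2 CPM in KO and 10.4, 8.72, 19.0 and 8.35 CPM in WT, which gave 1.12 ± 0.33 as the log2 fold change (SE, adjusted p in edgeR = 0.0111). MT2C_Mm had 14.6, 10.1, 15.01 and 14.5 CPM in KO and 6.02, 5.51, 10.5 and 6.58 CPM in WT, with 0.92 ± 0.32 (edgeR adjusted p = 0.0236). For both LTRs WT replicate 3 was slightly above KO replicate 2, and these 2 libraries alone made the genotypes overlap. MT2B2 had 28.5, 19.7, 30.8 and 28.8 CPM in KO and 16.5, 15.9, 18.2 and 12.6 CPM in WT, with 0.77 ± 0.25 (edgeR adjusted p = 0.0184). Its genotypes did not overlap, which was true of 45.7% of TE subfamilies in Spc. KO replicate 2, the lowest KO library, had 1257 MT2B2 counts. In that library MT2B2_dup1919 and MT2B2_dup1918, described further on, had 61 and 64 reads, and both had 0 in every WT library. MT2B2 without these copies was not tested, so its lack of overlap may rest on them. DESeq2 called MERVL-int and these 3 LTRs (adjusted p = 0.00205 for MT2_Mm, 0.00435 for MT2C_Mm and 0.00554 for MT2B2), so the number of calls depended on the tool.

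The remaining 4 subfamilies had smaller or opposite changes, and none was called by edgeR or DESeq2. MT2A, an old LTR, had 34.5, 25.4, 43.1 and 36.1 CPM in KO Spc and 52.1, 40.4, 46.0 and 51.8 CPM in WT Spc, which gave -0.45 ± 0.22 as the log2 fold change (SE, adjusted p in edgeR = 0.0885). MT2B had -0.21 ± 0.17 (edgeR adjusted p = 0.27), MERVL_2A-int 0.17 ± 0.24 (0.55) and MT2B1 0.03 ± 0.22 (0.917). The median change of all TE subfamilies tested was 0.10 and that of genes 0.11, and with scaling by library totals these medians became 0.77 and 0.79. Under that scaling MT2A (0.25) and MT2B (0.48) were higher in KO, so their sign is relative to the scaling, while MERVL-int, MT2_Mm, MT2C_Mm and MT2B2 stayed higher in KO under both.

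**Figure D1:**
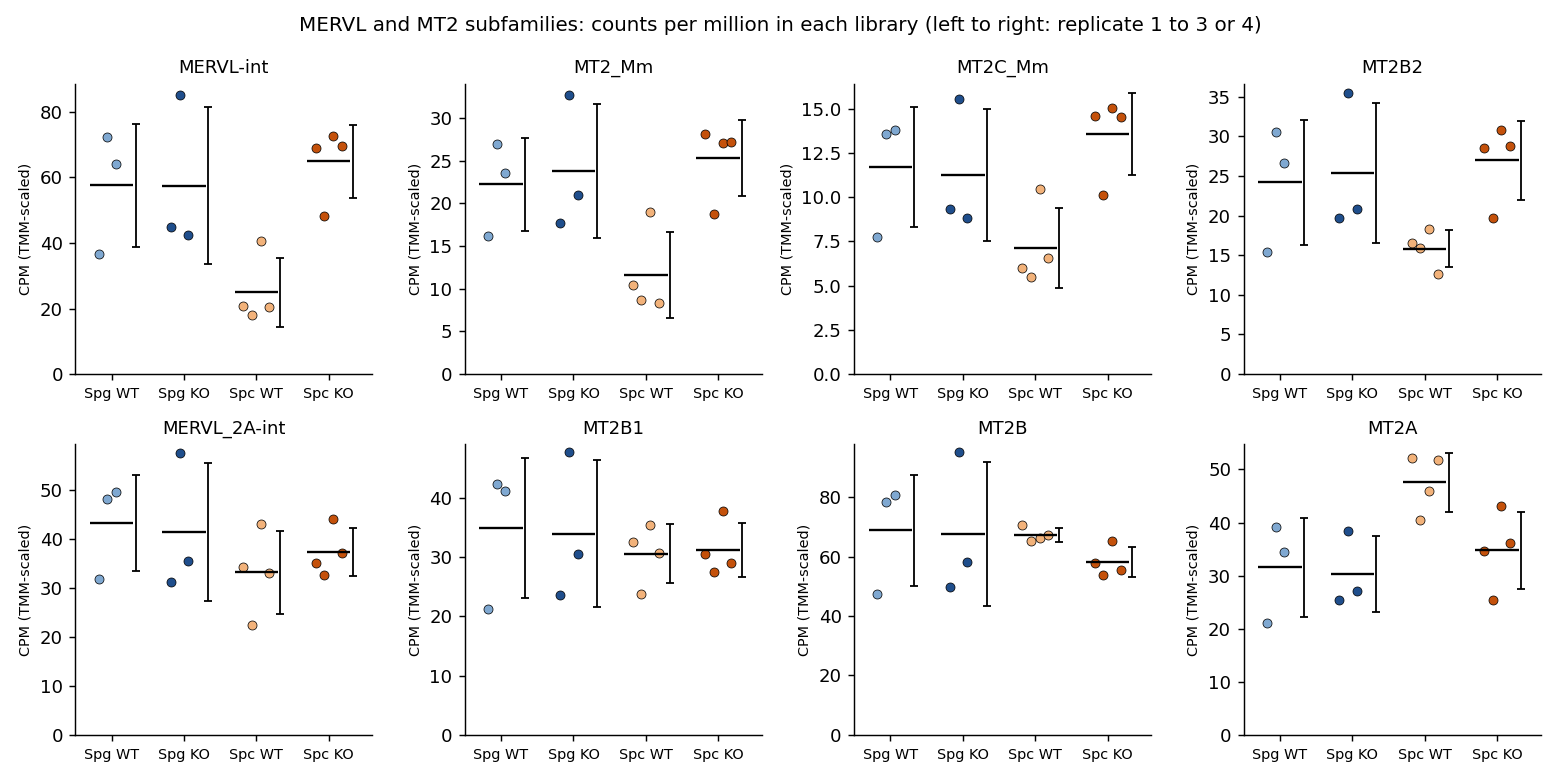
Counts per 1000000 (CPM) of the 8 MERVL and MT2 subfamilies in each library, scaled by TMM within each stage, by group (points, libraries; line, mean; bar, SD). MERVL-int, MT2_Mm, MT2C_Mm and MT2B2 sit lower in WT spermatocytes than in KO spermatocytes, and WT replicate 3 is the highest WT spermatocyte library for MERVL-int at 40.7 CPM.

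The size of the genotype effect was next compared between the stages in 1 fit over all 14 libraries. MERVL-int had the largest difference among the members, with a genotype effect larger in Spc than in Spg by a log2 value of 1.32 ± 0.49 (SE, adjusted p in edgeR = 0.0419), which missed the threshold. Of the 8 subfamilies, 0 were called and 1 had an unadjusted p under 0.05 in edgeR, DESeq2 called 0, and 6.44% of 978 TE subfamilies were called. Without WT Spc replicate 3 the difference was 1.66 (edgeR adjusted p = 0.00516). MT2_Mm differed by 0.96 ± 0.48 (edgeR adjusted p = 0.115) and MT2C_Mm by 0.93 ± 0.47 (0.122).

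Between WT stages the old LTR MT2A rose. Scaled over all libraries together, it had 17.2, 31.4 and 29.3 CPM in WT Spg and 58.5, 48.5, 54.5 and 57.8 CPM in WT Spc, with no overlap, as was true of 43.1% of TE subfamilies. The log2 fold change of WT Spc over WT Spg was 1.08 ± 0.26 (SE, adjusted p in edgeR = 0.00236). This was the only call among the 8 subfamilies, where 25.5% of all TE subfamilies were called and the median TE subfamily change was 0.42. It was lost without WT Spg replicate 1 (0.71, edgeR adjusted p = 0.0366) or replicate 3 (1.03, 0.0134), and with library totals the change was 0.26. MERVL-int moved the other way in WT without passing the test, from 29.9, 58.0 and 54.5 CPM in Spg to 23.2, 21.7, 48.1 and 22.9 CPM in Spc (-0.71 ± 0.34, edgeR adjusted p = 0.0835). Without WT Spc replicate 3 this difference was called (-1.05, edgeR adjusted p = 0.00807).

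In KO, 0 of the 8 subfamilies were called between the stages by edgeR and by DESeq2, 1 had an unadjusted p under 0.05, and 1.43% of TE subfamilies were called. MERVL-int had 38.1, 72.0 and 35.4 CPM in KO Spg and 79.5, 55.4, 82.4 and 78.1 CPM in KO Spc (0.61 ± 0.35, edgeR adjusted p = 0.304), and MT2A a log2 fold change of 0.63 ± 0.26 (0.148). The KO and WT stage comparisons draw on different libraries of the same fit, and their difference is the stage difference of the genotype effect given above.

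**Figure D2:**
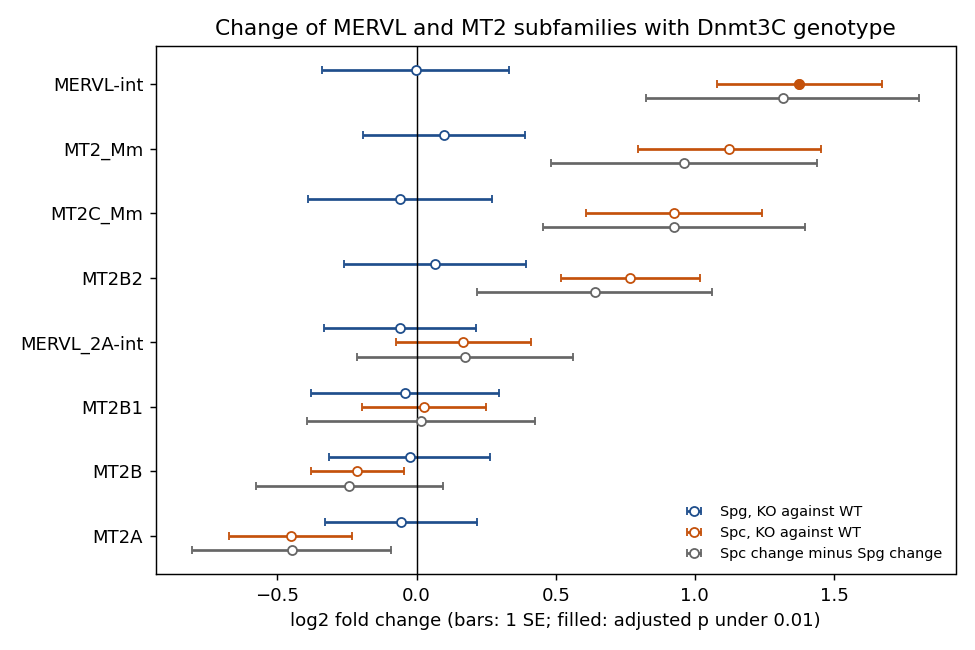
Log2 fold changes with 1 SE of the 8 subfamilies for KO over WT in spermatogonia, KO over WT in spermatocytes and the difference between both effects (filled, edgeR adjusted p under 0.01). MERVL-int in spermatocytes is the filled point at 1.38, and the spermatogonia values lie between -0.06 and 0.10.

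Full-length proviruses were examined because intact MERVL copies carry an MT2_Mm LTR at each end. Of 2600 MERVL-int copies, 595 spanned at least 5000 bp, and 575 of these had an MT2_Mm copy within 500 bp at both ends (paired proviruses). A read was assigned to 548 of the 575. The copy tables hold transcripts per 1000000 (TPM) over TE copies, and whole reads were recovered from them. Their sums are given as reads per 1000000 (RPM) of the library size of the count table, scaled by the TMM factor of the stage. Reads that match several copies were shared among them by the authors' counting, so a value for 1 near-identical copy is uncertain, and the sum over many copies depends less on that split.

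In Spc the paired proviruses held the larger part of the genotype difference of MERVL-int, 25.03 RPM against 14.1 for the remaining MERVL-int copies. They had 36.5, 24.3, 33.5 and 37.1 RPM in KO and 5.41, 3.39, 17.2 and 5.24 in WT (32.8 ± 5.92 and 7.81 ± 6.32, mean ± SD, n = 4 each). All KO libraries were above all WT libraries, and WT replicate 3 stood above the other 3 WT libraries. The ratio of means was 4.20 (two-sided exact permutation p = 0.0286, the smallest that 4 against 4 libraries allow; 0.0571 after Benjamini-Hochberg adjustment over both stages), and without WT replicate 3 its log2 rose from 2.07 to 2.81. The remaining MERVL-int copies had 29.8 ± 5.84 RPM in KO and 15.6 ± 3.93 in WT, a ratio of 1.90 (exact permutation p = 0.0286). Without the single most read copy in KO Spc, MERVL-int_dup448, the remaining copies had 22.2 ± 2.77 and 15.6 ± 3.84 RPM, a ratio of 1.42 with overlap between the genotypes. These RPM rest on TMM factors of 1.18 to 1.41 in KO Spc and 0.67 to 1.00 in WT Spc. On unscaled library totals the ratios would be larger, and the overlap was not examined on that scale. The paired proviruses without their most read copy, MERVL-int_dup2568, kept a ratio of 4.08 with no overlap. Reads fell on 232 to 285 paired proviruses per KO library and on 65 to 170 per WT library.

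Paired proviruses held 54.7%, 52.2%, 47.9% and 55.1% of MERVL-int reads in KO Spc and 28.1%, 20.3%, 44.4% and 27.4% in WT Spc. The genotypes did not overlap (two-sided exact permutation p = 0.0286, the smallest possible). In Spg the share was 48.1% to 54.5% over all 6 libraries, and the RPM were 22.2, 39.7 and 20.9 in KO and 18.9, 34.2 and 29.8 in WT (exact permutation p = 1). The share in KO Spc was thus in the range of the Spg libraries or close to it, and WT Spc had the low values. The 3′ LTRs of these proviruses had 696, 304, 461 and 560 reads in KO Spc and the 5′ LTRs 175, 236, 211 and 162. In WT Spc they had 88, 85, 250 and 40 reads against 33, 49, 152 and 53, so the 3′ LTRs were ahead in 4 of 4 KO and 3 of 4 WT libraries. In Spg they had 197, 437 and 217 reads in KO and 149, 257 and 301 in WT, against 202, 354 and 197 and 216, 199 and 221 on the 5′ LTRs.

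**Figure D3:**
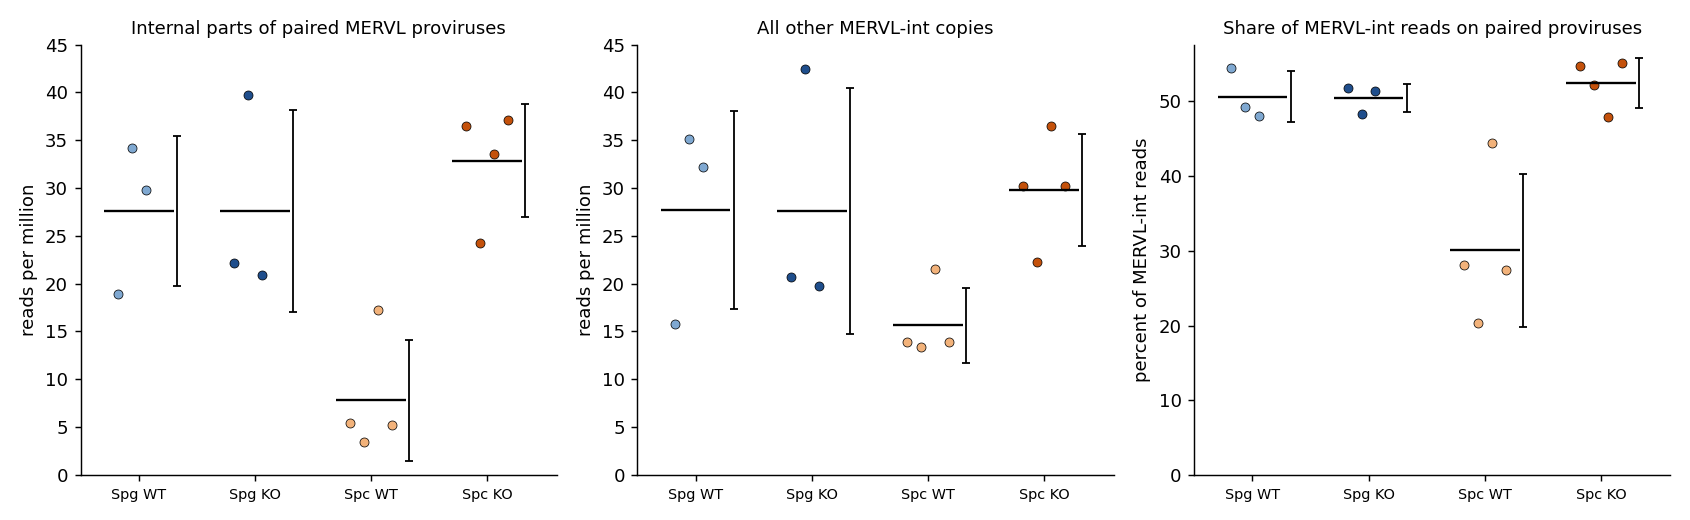
RPM on the internal parts of the 575 paired MERVL proviruses, RPM on all other MERVL-int copies, and the percentage of MERVL-int reads on paired proviruses, by library and group (points, libraries; line, mean; bar, SD). WT spermatocytes have the lowest mean in all 3 panels, with replicate 3 above the other WT libraries.

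The 5 paired proviruses with the highest mean TPM were each read in both genotypes of Spg. MERVL-int_dup2568 (chr19:61169396-61174750, minus strand, 5355 bp) lies on the strand of an exon of Gm7102. It had 40, 55 and 37 reads in KO Spg and 84, 178 and 135 in WT Spg, and 382, 128, 388 and 486 reads in KO Spc against 16, 18, 175 and 17 in WT Spc. KO was the lower genotype in Spg without overlap, while in Spc only WT replicate 3 reached into the KO range. On the reads, edgeR gave log2 fold changes of -1.73 ± 0.55 in Spg (SE; adjusted p = 0.0445, not called) and 2.26 ± 0.73 in Spc (adjusted p = 0.00732), and limma on log2(TPM + 0.1) gave 2.29 in Spc (adjusted p = 0.0913, not called). Its 3′ LTR MT2_Mm_dup2639 had 147, 35, 99 and 99 reads in KO Spc and 1, 0, 17 and 3 in WT Spc, and its 5′ LTR MT2_Mm_dup2640 had 5, 4, 1 and 0 against 2, 5, 31 and 3. In KO Spc the 3′ LTR of this provirus thus had more reads than the 5′ LTR in every library, while in WT Spc both LTRs were highest in replicate 3, as was the body. Gm7102 itself was higher in KO Spc (log2 fold change 2.07, edgeR adjusted p = 0.00435).

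MERVL-int_dup2283 (chr16:13908793-13914164, plus strand, within an intron of Mpv17l) had 37, 45, 72 and 38 reads in KO Spc and 1, 2, 15 and 0 in WT Spc (edgeR log2 fold change 2.95 ± 0.76, adjusted p = 0.00111). Mpv17l, on the same strand, was higher in KO Spc as well (1.45, edgeR adjusted p = 0.00306). In Spg it had 54, 124 and 23 reads in KO and 47, 53 and 68 in WT, with overlap. MERVL-int_dup13 (chr1:13208151-13213509, minus strand, within an intron of Ncoa2, a nuclear receptor coactivator) had 46, 5, 27 and 43 reads in KO Spc and 2, 0, 4 and 1 in WT Spc, and its gene was not called (0.47, edgeR adjusted p = 0.0966). MERVL-int_dup1808 (chr12:21735999-21741315, minus strand) had 12, 60, 24 and 8 reads against 0, 0, 7 and 0. MERVL-int_dup1001 (chr7:25542831-25548117, plus strand, within an intron of 4732471J01Rik) had 119, 106, 103 and 100 reads against 10, 14, 88 and 20 (edgeR adjusted p = 0.0716, not called), and its gene had 0.27 (0.498). By the measure given further on, this provirus lay downstream of a young copy called higher in KO Spc, and shared transcripts were not tested. Scaled to TPM, only MERVL-int_dup2283 among the 5 had every WT Spc library below every KO Spc library, and in the other 4 WT replicate 3 reached into the KO range.

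Single copies were tested with limma on log2(TPM + 0.1) at a mean of at least 0.5 TPM. In Spg, 0 of the 2429 members tested were called, against 0.00911% of all 252388 TE copies tested, and 119 members had an unadjusted p under 0.05. The edgeR test on recovered reads called 4 of 239 members, all higher in KO, against 14% of all 30843 TE copies tested (13.6% higher), and 7 members had an unadjusted p under 0.05. In Spc limma called 84 members higher and 110 lower of 2355 tested (8.24%), against 11.2% of all 241893 TE copies (7.17% higher and 4.06% lower). These 194 calls became 99 without WT replicate 1, 96 without WT replicate 4 and 61 with a replicate block. With TPM multiplied by the TE share of the scaled counts, which puts copies on the scale of the whole library, it called 130 members higher and 75 lower. The edgeR test on reads called 39 members higher and 53 lower of 207 (44.4%), against 65.4% of all 28404 copies tested (47.9% higher and 17.5% lower). The median log2 fold change was 0.17 over the members and 1.91 over all copies in edgeR, and 1.12 and 1.39 in limma. In limma on TPM and in edgeR on reads, the share of members called was below that of all TE copies in both stages. All TE copies include the young L1 and ERVK copies. Of other copies outside L1 and ERVK, edgeR called 135 higher and 72 lower in Spg, with 20700 not called. In Spc it called 3137 higher and 3368 lower, with 7439 not called. Against these copies the share of members called by edgeR was higher in Spg and slightly lower in Spc. In limma in Spg, a share of 0.00911% is too small for 0 of 2429 to show a lower one. Tests of these differences were not run.

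Calls in Spc fell differently over the subfamilies. In limma, MERVL-int had 5 copies higher and 2 lower of 79 tested, MT2_Mm 7 and 3 of 111, MT2C_Mm 5 and 2 of 89 and MT2B2 13 and 7 of 275. MERVL_2A-int had 5 higher and 18 lower of 145, MT2A 10 and 28 of 372, MT2B1 14 and 24 of 276, and MT2B 25 and 26 of 1008. Higher calls outnumbered lower ones in the first 4 and lower calls outnumbered higher ones in the other 4. The latter include MERVL_2A-int and MT2B1 with summed levels slightly above WT. Of all TE copies in this test 7.17% were called higher and 4.06% lower, so an excess of higher calls was also the background pattern. In the first 4 the share called in either direction was 7.27% to 9.01%, against 11.2% of all copies. On the scale of the whole library, given above, higher calls outnumbered lower ones over the members together. The balance per subfamily is not given on that scale. A test of the difference in balance between subfamilies was not run.

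Copies were also grouped by their position in the GENCODE M21 annotation. Of the 46168 copies, 59.4% lay between genes, 15.4% in introns on the strand of the gene, 21.5% in introns on the opposite strand and 2.14% in exons on the same strand. Copies in introns on the strand of the gene held 33.5% to 50.1% of member reads per library, and those in introns on the opposite strand 8.12% to 12.1%. Of the members tested by edgeR in Spc, 7 were called higher and 20 lower of 94 in introns of the same strand. The numbers were 20 and 27 of 80 between genes, 7 and 4 of 22 in introns of the opposite strand and 5 and 1 of 9 in exons of the same strand. Of all copies in this test 47.9% were called higher and 17.5% lower. Among other copies outside L1 and ERVK, 3137 were called higher, 3368 lower and 7439 were not called. Reads on an intronic copy of the same strand can come from the transcript of the gene, and the 2 sources cannot be told apart here. The 10 most read copies held 12.4% to 22.5% of member reads in WT Spc and 9.56% to 14.4% in the other groups.

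Some members were read in KO libraries and in no WT library. The 5 largest rises in Spc by the naming rule, called by limma with no overlap, were MT2B2_dup1919, MT2B2_dup1918, MT2B_dup4200, MT2_Mm_dup519 and MT2B1_dup6264, and all but the last had 0 reads in all 7 WT libraries. MT2B2_dup1919 (chr9:98780684-98781246, plus strand, in an intron of E330023G01Rik on the opposite strand) had 36, 72 and 12 reads in KO Spg, 163, 61, 249 and 191 in KO Spc. Against a floor of 3 reads per WT library it was at least 12.3-fold higher in KO Spg and at least 36.7-fold higher in KO Spc (limma adjusted p = 0.00018 in Spc; edgeR on reads 0.000818 in Spg and 9.56e-08 in Spc). An IAPLTR1_Mm copy, of a young endogenous retrovirus family, with at least 50 reads lay 8988 bp away.

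MT2B2_dup1918 (chr9:98259009-98259592, plus strand) had 32, 46 and 20 reads in KO Spg, 148, 64, 122 and 156 in KO Spc, and 0 in all WT libraries, at least 10.0-fold and at least 27.2-fold higher (edgeR on reads, adjusted p = 0.000606 and 1.12e-07). An L1Md_T copy, of a young LINE1 subfamily, lay 2251 bp away on the same strand. MT2B1_dup6264 (chr15:85099284-85099366, in an intron of Smc1b, which encodes a meiotic cohesin subunit) had 8, 17, 10 and 11 reads in KO Spc and 0 in WT Spc, at least 2.48-fold higher, but in Spg it had 0, 5 and 4 reads in KO and 0, 1 and 4 in WT. Smc1b, on the same strand, changed by -0.06 in Spc (edgeR adjusted p = 0.763). MT2B_dup4200 (chr5:123536277-123536304) spans only 28 bp and had 4, 3, 19 and 3 reads in KO Spc and 0 in WT Spc, so its large value in TPM rests on few reads.

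MT2_Mm_dup519 (chr3:140760528-140761026, minus strand), whose exonic part is printed above, is the 3′ LTR of a provirus read almost only in KO. It had 3, 33 and 1 reads in KO Spg, 106, 42, 62 and 84 in KO Spc, and 0 in all WT libraries, at least 16.3-fold higher in KO Spc (limma adjusted p = 0.000286; edgeR on reads 3.07e-07). The gene whose exon it overlaps, Gm43049, was also higher in KO Spc (9.29, edgeR adjusted p = 0.000174). Its internal part MERVL-int_dup513 (chr3:140761150-140766423) had 8, 80 and 14 reads in KO Spg and 0, 1 and 0 in WT Spg, and 92, 81, 209 and 79 reads in KO Spc against 1, 0, 0 and 0 in WT Spc. The 5′ LTR MT2_Mm_dup520 (chr3:140766437-140766931), which directly adjoins an L1Md_A copy, had 16, 16 and 12 reads in KO Spg, 10, 0, 16 and 17 in KO Spc and 0 in all WT libraries (edgeR on reads in Spg, adjusted p = 0.00886). All 3 pieces were thus read in KO and, but for 2 reads, in no WT library. The internal part and the 5′ LTR fell outside the naming rule and were chosen after their values were seen, as were the other copies named from here on unless stated.

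A further 3 copies with many more reads in KO than in WT Spc lay near young elements, and each had some reads in WT. MERVL-int_dup448 (chr3:75715544-75718493, plus strand), 248 bp from an RLTR10B copy, had 58, 101 and 74 reads in KO Spg and 18, 19 and 9 in WT Spg, and 412, 216, 657 and 485 in KO Spc against 1, 0, 10 and 1 in WT Spc (edgeR log2 fold change 6.71 ± 0.90, adjusted p = 3.29e-07; limma 6.09, adjusted p = 0.00085). It was the MERVL-int copy with the most reads in KO Spc. MERVL_2A-int_dup3390 (chr15:68978859-68979914, minus strand, in an intron of Khdrbs3 on the opposite strand), 5 bp from an L1Md_T copy, had 38, 35, 45 and 71 reads in KO Spc and 0 in WT Spc, at least 10.4-fold higher, and 39, 15 and 7 reads in KO Spg against 0, 0 and 2 in WT Spg. MT2B_dup2381 (chr3:104583818-104584377, minus strand), 2145 bp from an IAPLTR2_Mm copy, had 15, 35 and 13 reads in KO Spg and 0 in WT Spg (at least 6.47-fold higher; edgeR on reads, adjusted p = 0.00256), and 50, 57, 77 and 68 against 0, 0, 3 and 0 in Spc.

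Members downstream of a young copy were then counted, as a measure chosen after these values were seen. A copy counted when a young L1, IAP, RLTR10, MMERVK10C or ETn copy that edgeR called higher in KO ended at most 10000 bp upstream on the same strand. In Spc this held for 12 of 39 members that edgeR called higher, 0 of 53 called lower and 2 of 115 not called. Among other copies outside L1 and ERVK it held for 252 of 3137 called higher (8.03%) and 12 of 3368 called lower. In Spg it held for 4 of 4 members called higher and 2 of 235 not called, and for 37 of 135 other copies called higher (27.4%). Of the 12, 6 are copies named above (MT2B2_dup1919, MT2B2_dup1918, MT2_Mm_dup519, MERVL-int_dup513, MERVL_2A-int_dup3390 and MT2B_dup2381), whose position had prompted the count, and the 4 of Spg were named above as well, so these numbers are a description and no evidence of a difference. MERVL-int_dup448 did not meet the measure in either stage. Shared transcripts between the young copy and the member were not tested.

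The 5 largest falls in KO Spc were of MT2 copies, 3 of them in or near a gene that was lower in KO Spc. MT2B_dup13689 (chr19:7640802-7640903, 1160 bp from Hrasls5) had 134, 123, 176 and 112 reads in WT Spc and 0 in KO Spc, at least 67.6-fold lower (limma adjusted p = 1.79e-05; edgeR on reads 4.5e-08). The gene itself was lower in KO Spc, with a log2 fold change of -9.19 (edgeR adjusted p = 1.17e-05). MT2B2_dup1168 (chr6:40935351-40935769, in an intron of 1700074P13Rik) had 116, 94, 74 and 63 reads in WT Spc and 0 in KO Spc, at least 44.1-fold lower, and its gene changed by -9.44 (edgeR adjusted p = 2.87e-05). MT2B_dup12743 (chr17:25936099-25936200, in an intron of Gm26694) had 273, 222, 26 and 218 reads in WT Spc and 2, 6, 0 and 0 in KO Spc, with WT replicate 3 the lowest of its group, and Gm26694 had no tested value. The remaining 2 of the 5 largest falls were short: MT2B_dup11158 spans 16 bp (21, 11, 9 and 24 reads in WT Spc, 0 in KO Spc) and MT2B1_dup853 58 bp (10, 6, 17 and 9 against 0). Dlg5, the gene nearest to MT2B_dup11158 at 6150 bp, was not called (0.83, edgeR adjusted p = 0.135).

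MT2B1_dup853 belongs to a cluster of members within 1700026D11Rik on chromosome 2, a gene that was itself lower in KO Spc (log2 fold change -9.24, edgeR adjusted p = 1.13e-05). In this cluster MERVL_2A-int_dup414 (chr2:132493994-132495484) had 235, 128, 441 and 212 reads in WT Spc and 1, 0, 0 and 0 in KO Spc, and in Spg 5, 72 and 11 reads in WT and 0 in KO. WT Spg replicate 2, with the 72 reads, was also the Spg library with the highest pachytene marker sum (1829 CPM), whose part in these reads was not tested. MERVL_2A-int_dup415 had 34, 27, 83 and 31 reads in WT Spc and MT2B1_dup852 34, 27, 71 and 28, both with 0 in KO Spc. These 4 members of the cluster were thus read in WT Spc and, but for 1 read, in no KO Spc library.

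The MT2A copies described next were chosen for their many reads in WT Spc. MT2A_dup2451 (chr4:123858628-123859032, plus strand), whose first bases are printed above and which overlaps an exon of 1700121C08Rik on the opposite strand, had 223, 81, 49 and 192 reads in WT Spc and 0, 0, 0 and 9 in KO Spc (edgeR log2 fold change -6.50, adjusted p = 2.76e-06), and 0, 11 and 0 in WT Spg. 1700121C08Rik was itself lower in KO Spc (-7.66, edgeR adjusted p = 2.79e-05). MT2A_dup4226 (chr8:27302239-27302753) had 94, 94, 35 and 75 reads in WT Spc against 0, 0, 0 and 7 (edgeR -5.92, adjusted p = 3.27e-06), and 0, 24 and 4 in WT Spg, and its nearest gene, Gm9731 at 5438 bp, changed by -6.25 (7.19e-06). MT2A_dup7204 had 52, 69, 48 and 48 reads in WT Spc against 22, 6, 21 and 25 (edgeR -2.12, adjusted p = 0.00308), and 2, 18 and 7 in WT Spg. The first and second had reads in 1 library of KO Spc each, whereas the third was read in all 8 Spc libraries. MT2A_dup6753 was also read in all 8, with 56, 56, 61 and 43 reads in WT Spc and 28, 9, 15 and 41 in KO Spc, and was not called (edgeR -1.76, adjusted p = 0.0117). Among 35 MT2A copies tested by edgeR on reads, 4 were called higher in KO Spc and 13 lower, against 47.9% higher and 17.5% lower of all copies in that test. Outside L1 and ERVK, 3137 other copies were called higher, 3368 lower and 7439 were not called.

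Members with the most reads in Spg lay elsewhere and were not called there. MERVL_2A-int_dup3653 (chr17:45436602-45440015, plus strand, over an exon of B230354K17Rik) had 370, 529 and 363 reads in KO Spg and 445, 320 and 440 in WT Spg, and 223, 443, 501 and 279 in KO Spc against 9, 18, 102 and 6 in WT Spc (edgeR log2 fold change 3.02 ± 0.73, adjusted p = 0.000607; limma 3.18, adjusted p = 0.0232, not called). Its gene changed by 3.40 in Spc (edgeR adjusted p = 0.00201). MERVL_2A-int_dup1424 (chr7:71709618-71710107, plus strand) had 186, 226 and 218 reads in KO Spg, 176, 138 and 266 in WT Spg, 149, 187, 226 and 113 in KO Spc and 0, 5, 33 and 0 in WT Spc (edgeR 3.75 ± 0.86, adjusted p = 0.000334; limma 5.66, adjusted p = 0.0155, not called). For both copies the KO Spc counts lay in or near the range of the Spg libraries, and WT Spc was low, with replicate 3 the highest WT library. By the naming rule the 10 copies with the highest mean TPM were also selected. These were copies of 14 to 102 bp, in which few reads make a high TPM, as for the 37 bp MT2B2_dup2431 and the 14 bp MT2B2_dup1680.

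**Figure D4:**
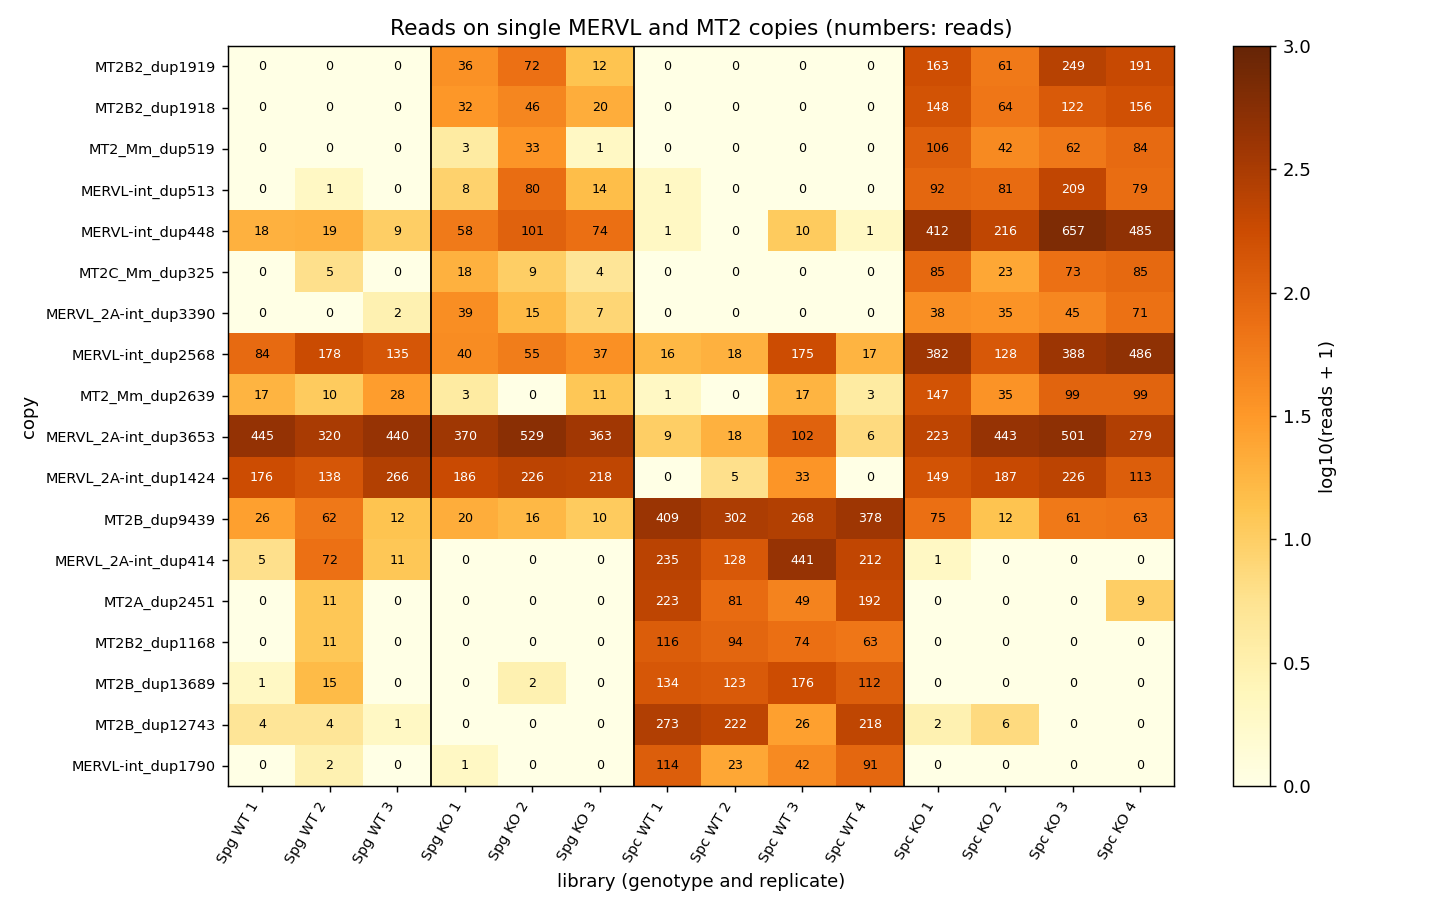
Reads assigned to 18 named MERVL and MT2 copies in each of the 14 libraries, on a log10(reads + 1) colour scale, with libraries in columns by group. MT2B2_dup1919 and MT2B2_dup1918 are read in KO libraries only, MERVL_2A-int_dup414 and MT2B_dup13689 are highest in WT spermatocytes, and MERVL_2A-int_dup3653 is read in all groups with low values in WT spermatocytes.

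Genes of the pathway were taken from 2 lists. The first held 36 genes of the 2-cell stage and activators of MERVL. Only 3 were tested in each stage, and the genes of the Dux cluster and the Zscan4 family stayed at few counts. Duxf3, which encodes DUX, had 7, 9 and 5 counts in KO Spg and 12, 8 and 1 in WT Spg, and 7, 5, 9 and 4 in KO Spc and 9, 2, 9 and 3 in WT Spc. Gm4027, whose counts fell below the filter in Spc, had 22, 0, 23 and 30 counts in WT Spc and 0, 0, 1 and 0 in KO Spc, so 3 WT libraries were above KO. Zfp352, a gene of the 2-cell stage, had 0 counts in every KO Spc library and 2, 0, 3 and 0 in WT Spc. Dppa2 and Dppa4, which act together upstream of Dux, had log2 fold changes of 2.27 ± 0.91 (SE, adjusted p in edgeR = 0.0449) and 1.95 ± 0.61 (0.0152) in Spc and were not called. Dppa4 had 382, 415, 530 and 426 counts in KO Spc and 35, 36, 244 and 28 in WT Spc, with WT replicate 3 nearest to KO. Nelfa, a subunit of the negative elongation factor, was the 1 gene called, lower in KO Spc (-1.71 ± 0.21, edgeR adjusted p = 9.64e-05), where 58.8% of all genes were called and 30.7% were called lower. In Spg 0 of the 3 were called by edgeR and by DESeq2 and 0 had an unadjusted p under 0.05, where 0.0436% of all genes were called.

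The second list held 22 repressors of MERVL, all of them tested. In Spg 0 were called by edgeR and by DESeq2 (2 had an unadjusted p under 0.05), and in Spc 7 were higher and 10 lower in KO, where 28% of all genes were called higher and 30.7% lower. The median log2 fold change of the list was -0.70 in Spc, against 0.11 over all genes. Among the higher ones were the histone methyltransferase gene Ehmt1 (2.94), the chromatin remodeller gene Smarcad1 (2.73), nucleolin (Ncl, 2.58), and E2f6 (2.19) and Mga (2.07) of a noncanonical Polycomb complex. Lower were Pcgf6 (-2.51) and L3mbtl2 (-1.25) of the same complex, Zfp42 (-2.21), the chromatin assembly factor genes Chaf1b (-1.84) and Chaf1a (-1.76), and Trim28 (-1.49), a corepressor recruited by KRAB zinc finger proteins. With library totals, calls over both lists changed from 7 higher and 11 lower to 8 higher and 6 lower. The histone methyltransferase gene Setdb1 changed by 0.04 (edgeR adjusted p = 0.838). Members of 1 complex thus moved in both directions. The marker values of the sorts given at the start move with the genotype as well, and their part in the differences of MERVL elements and of these genes was not tested.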

How the data were processed

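RNA of 14 libraries was analysed: 3 KO and 3 WT of Spg, and 4 KO and 4 WT of Spc. The authors trimmed reads with cutadapt 4.0, aligned them to GRCm38 with STAR 2.7.3a, allowed as many as 100 alignments for a read and counted with TEtranscripts, so the deposited count tables hold raw counts per gene and TE subfamily. The deposited copy tables hold TPM of single TE copies, made by the authors with TElocal. Their sum is 1000000 in each library without any gene, so a rise of abundant young TEs lowers the TPM of all other copies. A copy missing from a table was taken as 0. The log2 fold changes and adjusted p-values in the deposited count tables are those of the authors' DESeq2 test and were not used. The Spg columns numbered 4 in the deposited tables belong to the samples titled replicate 3. Depth was 40.6 to 53.3 per library, in units of 1000000 counts. No column was left without a sample, and no library of the deposited tables was left out. The paper states that a replicate of every genotype had been removed from the Spg set for poor RNA quality.

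Members and lists were chosen with earlier results of these data known. Counts were tested with the quasi-likelihood test of edgeR 4.0.16 in R 4.3.3, after filterByExpr and TMM scaling, each stage alone, and over all 14 libraries in 4 groups for the stage comparisons and the difference of the genotype effect. All tests are two-sided, with Benjamini-Hochberg adjustment over all features tested, and a call is an adjusted p under 0.01. Copies were tested with limma 3.58.1 (trend) on log2(TPM + 0.1), which understates the fold change of low copies, at a mean of at least 0.5 TPM. The TPM steps gave whole reads (100% of values above 0 within 0.01 of a whole number), and edgeR was run on these reads with the library sizes of the count tables as an alternative. Single values per library were compared by exact permutation tests. Both models were tested on simulated data. DESeq2 1.42.0, Python 3.11.15, pandas 2.3.3, numpy 2.4.6 and scipy 1.17.1 were also used. A fold against a group at 0 is a lower bound against 3 reads per library, which covers counting error only.

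The naming rule took all 8 subfamilies. In each stage it took the 5 largest rises and falls among copies called by limma with no overlap between groups. It also took the 5 paired proviruses and the 10 copies with the highest mean TPM. Not all of those 10 copies are named in the text. Other copies were chosen after their values were seen. The distance to a young TE copy was measured to the nearest such copy with at least 50 reads on either side. Replicate numbers were checked for pairing by the correlation of deviations from the group means over genes. In Spg it was 0.68, 0.18 and 0.25 for replicates 1 to 3, but 0.32 for KO replicate 2 with WT replicate 3. These values show pairing for replicate 1 at most, and no label gives a shared litter or day. The main tests in Spg were run without a block, and a replicate block was an alternative. In Spc the correlation was 0.06, 0.19, -0.03 and 0.10, so the numbers were not taken to pair the libraries. Alternatives were DESeq2, its size factors, library totals, other filters, thresholds and pseudocounts, a replicate block, each library left out, and Spc replicates 1 and 4 summed. Raw reads were not analysed here.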

Additional observations from a re-analysis of the deposited data

Results flagged for a closer look

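Groups of 4 libraries were screened for a library far from the other 3, by Dixon's ratio of the gap to the range at its 95% limit. Of 22 groups 6 exceeded it, and the 6 rest on 2 libraries. The screened values overlap in part, and Spc replicates 1 and 4 may be repeats of 1 sample. The 6 of 22 can therefore not be set against a rate expected by chance. WT Spc replicate 3 was the highest of its group for MERVL-int (40.7 CPM, ratio 0.887), for the share of all counts from MERVL and MT2 subfamilies (0.0280%, ratio 0.918) and for reads on paired MERVL proviruses (17.2 reads per 1000000, ratio 0.854). KO Spc replicate 2 was the lowest of its group for MERVL-int (48.3 CPM, ratio 0.851), MT2C_Mm (10.1 CPM, ratio 0.901) and MT2_Mm (18.7 CPM, ratio 0.888). In WT Spc replicate 3, the spermatogonial markers summed to 268 CPM and the pachytene markers to 7345 CPM, against 40.3 to 141 and 11261 to 14382 in the other 3 WT libraries. The same library also had the highest spermatid (1277 CPM, against 57.7 to 465) and Sertoli sums (401 CPM, against 109 to 138) of its group. In KO Spc replicate 2 the spermatogonial markers summed to 1027 CPM and the pachytene markers to 169 CPM, against 413 to 1020 and 307 to 411 in the other KO libraries, and the peritubular markers to 146 CPM, against 14.9 to 65.6. Early meiotic markers were highest of WT Spc in replicate 3 (2345 CPM, against 1561 to 1575) and lowest of KO Spc in replicate 2 (1321 CPM, against 2052 to 2403), as was MERVL-int. The part of these markers in the MERVL values was not tested.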

How the results depend on the processing

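Of 876 alternatives, 759 gave the same verdict, 21 counts or values moved, 16 changes became called, 4 lost the call and 76 turned sign. Of the 8 subfamilies, 1 was called in Spc, and this became 4 with DESeq2, 4 with library totals, 4 at an adjusted p under 0.05, 0 with replicates 1 and 4, which may be repeats of 1 sample, summed (MERVL-int 1.26, edgeR adjusted p = 0.0202) and 1 to 3 without single libraries (2 without KO replicate 2, 3 without WT replicate 3). MERVL-int itself ran from 1.23 to 1.73 without single libraries and stayed called. The difference between stages had 0 calls, 1 at an adjusted p under 0.05, and 0 to 1 without single libraries. The WT stage comparison had 1 call and 0 to 2 without single libraries (2 without Spc replicate 3). Member copies called in Spg were 0 by limma, 2 at a mean of at least 0.1 TPM (both lower) and 4 by edgeR on reads. In Spc they were 194, and 127 with a pseudocount of 1, 121 at a mean of at least 0.1 TPM, 117 with no filter, 92 by edgeR on reads, 350 at an adjusted p under 0.05, 61 with a replicate block, and 96 to 226 without single libraries (99 without WT replicate 1 and 96 without WT replicate 4). The replicate block changed no other call that it was run for in Spg or Spc, and in Spc MERVL-int had 1.44 with it (edgeR adjusted p = 0.00257). For edgeR on the reads of copies no block was run. The correlations of same-numbered Spc libraries do not show pairing there. No block was run for the stage comparisons, whose groups are nested in stage.

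Among subfamily fold changes, signs that turned belong to changes of at most 0.67 on the log2 scale, none of them called. In Spg MERVL-int became 0.02 with library totals and 0.010 with no filter, and without single libraries the ranges were -0.40 to 0.20 for MERVL-int, -0.37 to 0.12 for MERVL_2A-int, -0.29 to 0.14 for MT2A, -0.37 to 0.18 for MT2B1, -0.35 to 0.17 for MT2B, -0.37 to 0.10 for MT2C_Mm, -0.25 to 0.28 for MT2B2, -0.20 to 0.29 for MT2_Mm, -0.36 to 0.18 for the paired proviruses and -0.31 to 0.17 for the member share of counts. In Spc MT2B1 became -0.033 with DESeq2, -0.037 with its size factors and -0.0075 with no filter, with a range of -0.10 to 0.13 without single libraries, where MERVL_2A-int ran from -0.0018 to 0.34. With library totals MT2A became 0.25 and MT2B 0.48 in Spc, and 0.28 and 0.48 for the difference between stages. For that difference MT2B1 became -0.017 with DESeq2, -0.022 with size factors and -0.010 with replicates summed, with ranges of -0.10 to 0.41 for MT2B1 and -0.34 to 0.16 for MT2B without single libraries. Between WT stages MERVL_2A-int became -0.67, MT2B -0.35 and MT2B1 -0.50 with library totals and MERVL_2A-int -0.035 with no filter, and the ranges without single libraries were -0.22 to 0.24 for MERVL_2A-int, -0.11 to 0.39 for MT2B1 and -0.51 to 0.0016 for MT2B2. MT2B between KO stages ran from -0.020 to 0.47. The member share of counts, as a log2 ratio of KO over WT, became -0.50 in Spg and -0.83 in Spc when taken of TE counts alone, and -0.015 in Spg when scaled by TMM. The cause of these changes was not tested, except that a share of TE counts falls by construction where other TEs rise. Reads that match several copies limit every value of a single young copy.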
